A study of Mus musculus with 6 samples.

Results

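The circRNAs described here come from 4 genes of TGF-beta and BMP signalling, Acvr2a, Tgfbr2, Smad1 and Bmper. The 5 index circRNAs were chosen with their levels at the 3 stages of these libraries in view: one each of Acvr2a, Tgfbr2 and Smad1 and a pair of Bmper. Every other circRNA of the table that overlapped an index circRNA on the same strand was added, which gave 8 more. The members were therefore 13 of the 3662 circRNAs in the table, and 2 further circRNAs of the same genes that overlap no index circRNA are given beside them. Because the stage levels chose the index circRNAs, their levels are a description and carry no test.

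The study followed circRNAs through white adipogenesis in culture. Digested inguinal fat of female mice aged 6 weeks, labelled C57BL/6 and given as C57BL/6J in the methods, gave the stromal vascular fraction (SVF), a mixture of cell types without the mature adipocytes, and no group carried a genetic change. D0 cells were proliferating preadipocytes in growth medium, D4 cells had been in an induction cocktail of insulin, dexamethasone and 3-isobutyl-methylxanthine, and D8 cells had then been in medium with insulin and triiodothyronine. Each stage had 2 biological replicates, and no source says that replicates of different stages came from the same cells. RNA was depleted of rRNA and treated with RNase R, an enzyme that digests linear RNA, in all 6 libraries.

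TGF-beta, activin and BMP ligands bind a type II receptor, which activates a type I receptor, and this phosphorylates receptor-regulated Smad proteins that enter the nucleus with Smad4. Secreted proteins such as Bmper hold or present the ligands outside the cell. In adipose tissue TGF-beta and activin are known to restrain the differentiation of preadipocytes, and several BMPs are known to favour commitment to the adipocyte lineage. A circRNA forms when the end of an exon is spliced back to its own start or to that of an exon before it, and the reads across that joint, the back-splice reads, are what was counted.

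The libraries held 30110 and 32310 back-splice reads at D0, 43069 and 41658 at D4, and 45371 and 50672 at D8. Levels are given in circCPM, the back-splice reads of a circRNA scaled to 1000000 back-splice reads of its library, so 1 read was worth 19.7 to 33.2 circCPM. A value of 1 read does not occur in the table, and a 0 may therefore stand for a single read. Cell type markers could be checked only through genes that make a circRNA. Of 15 adipocyte markers 6 had one (Acaca, Cd36, Insr, Lipe, Lpl and Pparg), and their summed level was 1486 to 2823 circCPM at D0, 3001 to 3413 at D4 and 5999 to 7119 at D8. Adipoq, Fabp4 and Plin1 had none. Of 13 preadipocyte and fibroblast markers only Pdgfra had one, at 266 and 309.5 circCPM at D0 and at 0 to 98.7 at D4 and D8. None of the 8 endothelial and 6 mural markers had a circRNA, and the immune list had one from Emr1, listed at 0 at D0 and D4 and at 78.9 and 220.4 circCPM at D8. The part of cell composition in the results below was not tested.

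The joint of each index circRNA is shown first because it is the sequence by which the circle was recognised. Each line reads 5′ to 3′ on the strand of the gene, with the last 15 bases before the joint in lower case and the first 15 bases after it in capitals. In genome build mm9 the circles lie at chr2:48725809-48728993 on the + strand for Acvr2a, chr9:116038934-116040831 on the - strand for Tgfbr2, chr8:81895683-81896263 on the - strand for Smad1, and chr9:23058816-23105466 and chr9:23203794-23211275 on the + strand for Bmper.
Acvr2a exons 2 to 4: cttgttcctactcaaGTGCTATACTTGGCA
Tgfbr2 exons 3 to 4: tcatcttttcggaagTTAACAGTGATGTCA
Smad1 exon 2: gagtggagagcccggGCGCTAACTGGGATC
Bmper exons 3 to 6: acatgctcctgcgttAACAAAGAGGTGACT
Bmper exons 12 to 13: taccactttctaccgAACCTGGTGTGTGCA

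By the GENCODE annotation of mm9, both ends of all 13 members fell exactly on the ends of annotated exons. Acvr2a exons 2 to 4 joined 3 coding exons into a circle of 473 bases and is mmu_circ_0001017 in circBase, a catalogue of circRNAs. Tgfbr2 exons 3 to 4 made a coding circle of 360 bases, mmu_circ_0001853. Smad1 exon 2 circularised alone as mmu_circ_0001699, with 181 bases of 5′ UTR and 400 coding bases that include the start codon. Bmper exons 3 to 6 gave 357 coding bases and has no circBase name, and Bmper exons 12 to 13 gave 667 coding bases, mmu_circ_0015472. Of the 13 members 9 were absent from circBase, against 35.6% of the 3662 circRNAs. The genome held AG just before the start and GT just after the end of 13 of 13 members, as it did for 99.6% of all circRNAs.

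**Figure D1:**
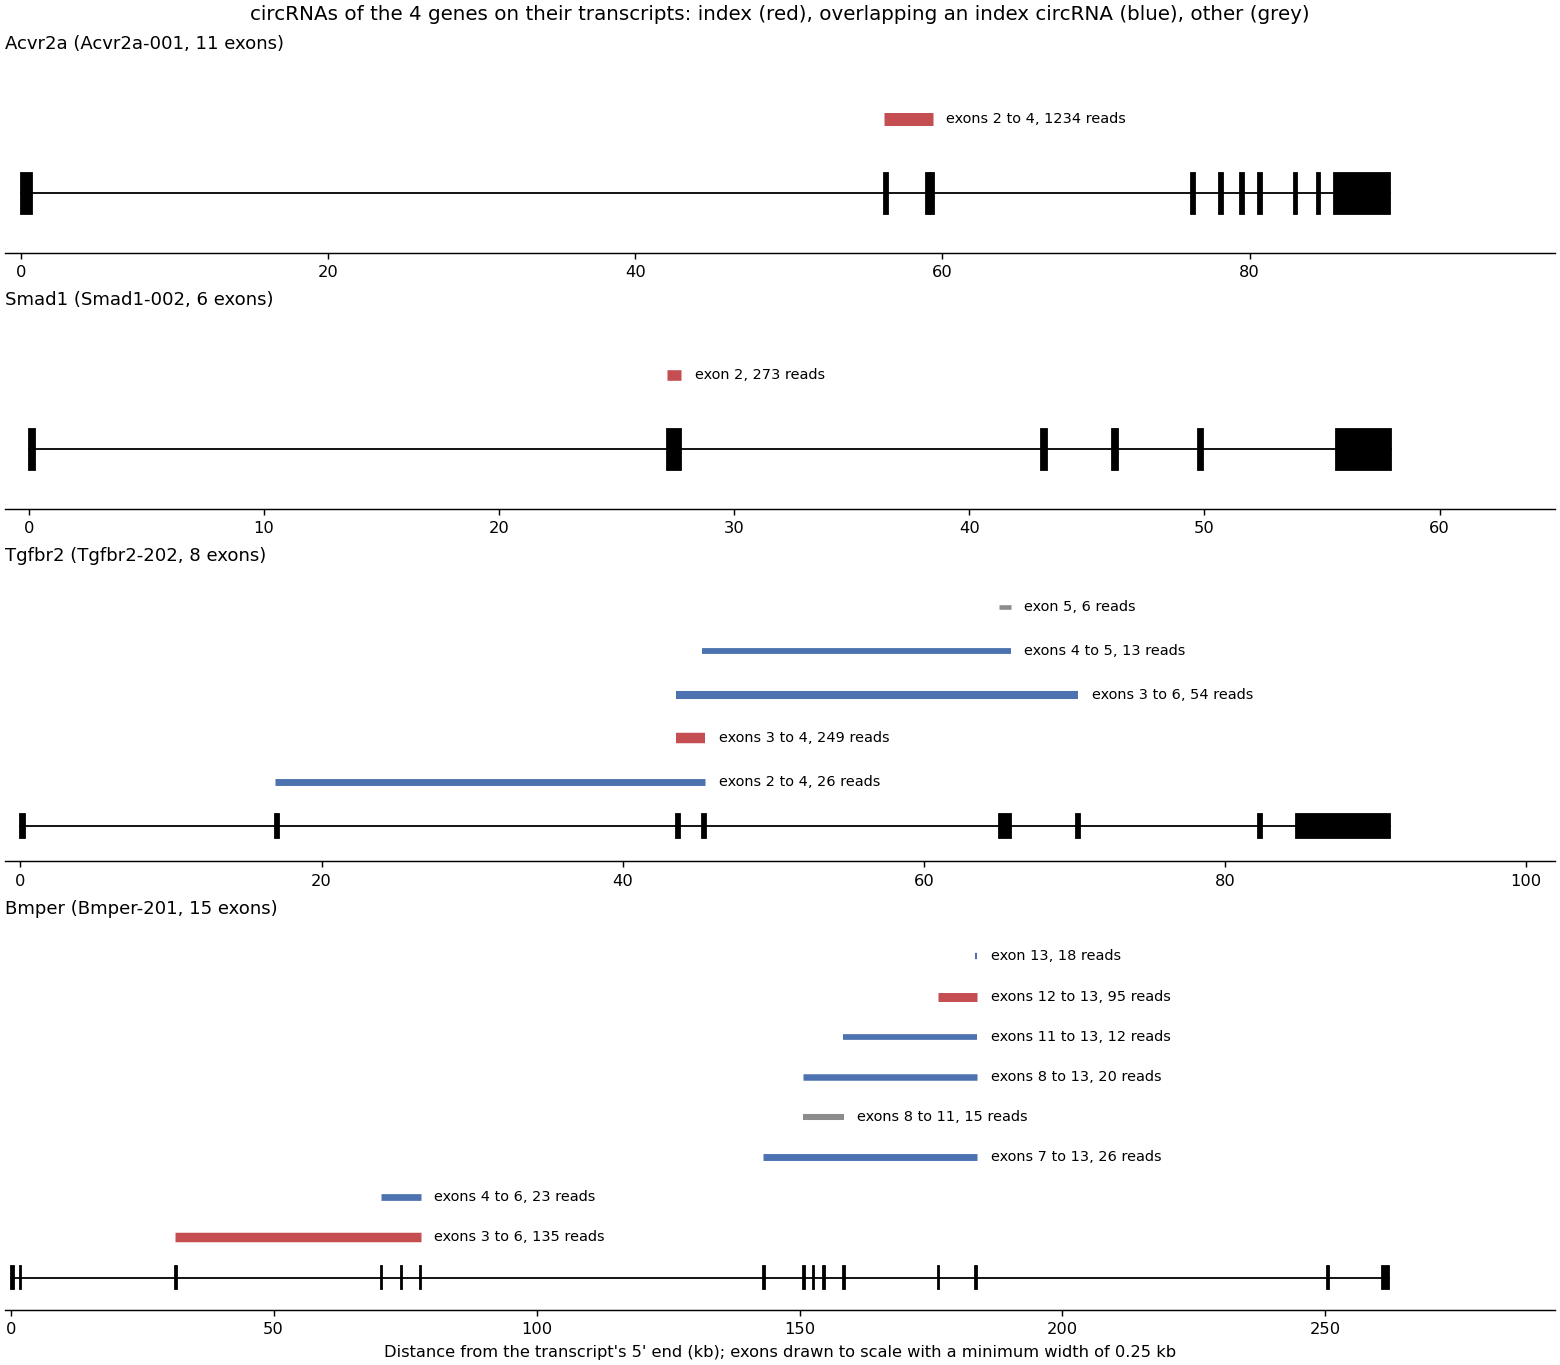
Position of every circRNA of the 4 genes along its transcript, in kb from the transcript's 5′ end, with exons as black boxes. Red lines are index circRNAs, blue lines are members that overlap them and grey lines are circRNAs that overlap none, and thickness grows with the reads summed over the 6 libraries, from 6 for Tgfbr2 exon 5 to 1234 for Acvr2a exons 2 to 4.

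Acvr2a, a type II receptor for activins that also binds several BMPs, made a single circRNA, the most abundant of the members. Its back-splice reads were 49 and 100 at D0, 298 and 302 at D4, and 242 and 243 at D8. The mean level was 2361 ± 1038 circCPM at D0, 7084 ± 234 at D4 and 5065 ± 381 at D8 (SD, n = 2). The libraries of the 3 stages did not overlap, with both D0 libraries lowest and both D4 libraries highest. Log2 differences come from an edgeR fit over the 1407 circRNAs that passed a filter on low counts. The log2 difference was 1.67 ± 0.31 (SE) for D4 minus D0, 1.20 ± 0.31 for D8 minus D0 and -0.48 ± 0.30 for D8 minus D4. The D4 mean was 3.00 times the D0 mean. In these bulk libraries fewer cells of a type and less RNA per cell cannot be told apart, and the linear transcripts of the parental genes were not analysed here. The D0 libraries differed most from each other, and without D0 replicate 2 the difference of D4 minus D0 was 2.22 on the log2 scale.

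The 3 annotated exons of the Acvr2a circle, the most abundant circRNA of the set, are given in full. They follow the order in which they lie between the joint bases shown above. They occupy chr2:48725809-48726016, chr2:48728577-48728686 and chr2:48728839-48728993 of mm9 on the + strand, all in the coding sequence.
Acvr2a exon 2: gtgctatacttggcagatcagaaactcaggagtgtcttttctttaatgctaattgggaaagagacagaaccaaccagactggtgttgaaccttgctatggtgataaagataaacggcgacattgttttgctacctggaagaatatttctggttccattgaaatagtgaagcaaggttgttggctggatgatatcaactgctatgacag
Acvr2a exon 3: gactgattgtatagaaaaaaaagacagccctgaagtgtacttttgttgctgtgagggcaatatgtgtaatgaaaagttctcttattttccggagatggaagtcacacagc
Acvr2a exon 4: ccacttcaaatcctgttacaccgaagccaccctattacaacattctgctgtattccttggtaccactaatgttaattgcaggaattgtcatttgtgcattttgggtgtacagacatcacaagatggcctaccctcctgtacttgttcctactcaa

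Tgfbr2 encodes the type II receptor that binds TGF-beta ligands. Its exons 3 to 4 gave 3 and 7 back-splice reads at D0, 65 and 61 at D4, and 45 and 68 at D8. The mean level was 158 ± 82.7 circCPM at D0, 1487 ± 31.8 at D4 and 1167 ± 248 at D8 (SD, n = 2). Both D0 libraries lay far below the other 4, and the D8 libraries lay below both D4 libraries on the circCPM scale. The D4 mean was 9.40 times and the D8 mean 7.38 times the D0 mean. The log2 difference was 3.29 ± 0.48 (SE) for D4 minus D0, 2.94 ± 0.48 for D8 minus D0 and -0.35 ± 0.39 for D8 minus D4. Without D0 replicate 2 the difference of D4 minus D0 was 3.96.

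**Figure D2:**
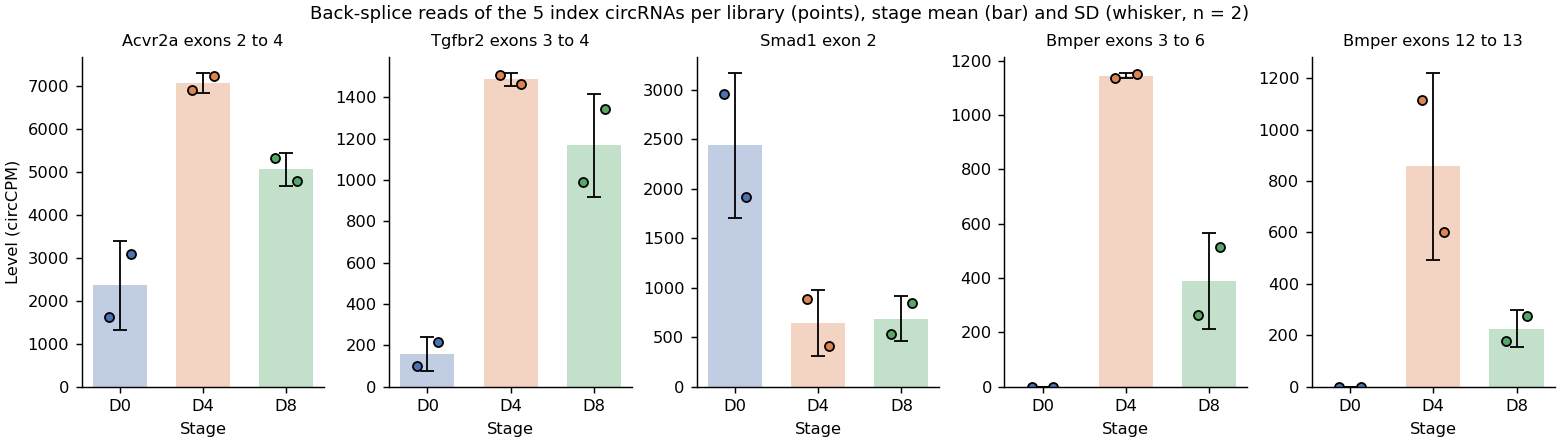
Level of each index circRNA in circCPM (vertical axes, one scale per panel) at D0, D4 and D8. Points are the 2 libraries of a stage, bars their mean and whiskers the SD. Acvr2a, Tgfbr2 and both Bmper circRNAs had their highest mean on D4, and Smad1 had its highest on D0, at 2437 circCPM.

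Spliced as annotated, the Tgfbr2 circle consists of exon 3 and exon 4, both in the coding sequence. They are shown because they also form the core of 2 of the longer Tgfbr2 circles. They lie at chr9:116040663-116040831 and chr9:116038934-116039124 of mm9 on the - strand.
Tgfbr2 exon 3: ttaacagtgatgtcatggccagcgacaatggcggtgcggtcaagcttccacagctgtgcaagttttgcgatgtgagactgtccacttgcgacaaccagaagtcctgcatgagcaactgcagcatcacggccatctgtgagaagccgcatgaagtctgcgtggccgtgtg
Tgfbr2 exon 4: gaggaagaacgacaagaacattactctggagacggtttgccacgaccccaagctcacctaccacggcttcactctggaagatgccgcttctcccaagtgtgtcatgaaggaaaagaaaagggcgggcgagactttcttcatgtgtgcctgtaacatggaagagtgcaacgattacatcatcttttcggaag

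A further 3 members overlapped the Tgfbr2 index circle. Exons 3 to 6 kept its start and ended after exon 6, exons 2 to 4 kept its end and began at exon 2, and exons 4 to 5 shared neither end. Their joints show the shared sides, in lower case before and in capitals after the joint.
Tgfbr2 exons 3 to 6: gcaatgctgtgggagTTAACAGTGATGTCA
Tgfbr2 exons 2 to 4: tcatcttttcggaagATGTGGAAATGGAAG
Tgfbr2 exons 4 to 5: gccaacagcgggcagGAGGAAGAACGACAA

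None of the 3 had a read on D0. Tgfbr2 exons 3 to 6 had 16 and 11 reads at D4 and 6 and 21 at D8, so its D4 and D8 libraries overlapped. Exons 2 to 4 had 3 and 4 reads at D4, and 19 and 0 at D8, where 1 library held all of them. Exons 4 to 5 had no read on D4 and 5 and 8 at D8. Tgfbr2 exon 5, which overlaps no index circle, had 3 and 3 reads at D4 and none on D0 or D8. All 5 Tgfbr2 circRNAs together gave 158 ± 82.7 circCPM at D0, 1958 ± 87.4 at D4 and 1784 ± 185 at D8 (SD, n = 2). Exons 3 to 4 supplied 75.9% of the gene's back-splice reads at D4 and 65.7% at D8, with 74.7% and 77.2% in the D4 libraries and 60.0% and 70.1% in the D8 libraries.

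**Figure D3:**
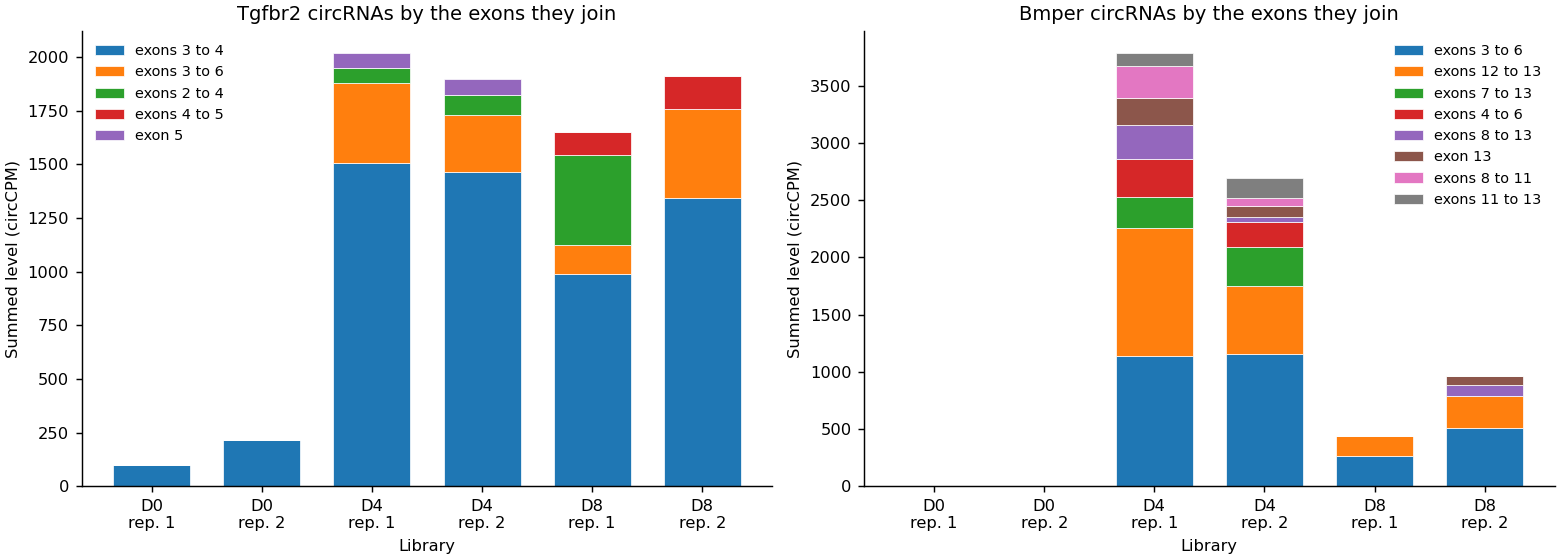
Summed level in circCPM (vertical axis) of the circRNAs of Tgfbr2 (left) and Bmper (right) in each of the 6 libraries, with colours for the exons joined. Tgfbr2 exons 3 to 4 form the largest part of every bar of that gene, and Bmper has no read in either D0 library.

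Smad1, a receptor-regulated Smad that carries BMP signals, went the other way. Its exon 2 circle had 89 and 62 back-splice reads at D0, 38 and 17 at D4, and 24 and 43 at D8. The mean level was 2437 ± 733 circCPM at D0, 645 ± 335 at D4 and 689 ± 226 at D8 (SD, n = 2). Both D0 libraries lay above the other 4, while the D4 and D8 libraries overlapped. The log2 difference was -1.82 ± 0.48 (SE) for D4 minus D0 and -1.73 ± 0.47 for D8 minus D0, and the D0 mean was 3.78 times the D4 mean and 3.54 times the D8 mean. Without D4 replicate 1 the difference of D4 minus D0 was -2.51. D8 minus D4 was 0.09 ± 0.48, and this small difference turned to -0.37 without D4 replicate 2 and to -0.28 without D8 replicate 2. No other Smad1 circRNA was in the table.

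The study designed divergent primers, which face away from each other on the linear exon and meet only across the joint, for this circle. Placed on the 581 bases of exon 2 and counted from the first base after the joint, the sense primer covers bases 475 to 494 and the antisense primer bases 48 to 67. The product across the joint is 174 bases, 107 before and 67 after it. Both are shown 5′ to 3′ in capitals because they read the same joint as the sequencing.
Smad1 sense primer: GAGCCACCATGAACTGAAGC
Smad1 antisense primer: TTGGTCTGCGGTTTGGAAAG

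Bmper, a secreted protein that binds BMPs and is known both to inhibit and to promote their signalling, had no back-splice read in either D0 library for any of its 8 circRNAs. Exons 3 to 6 had 49 and 48 reads at D4 and 12 and 26 at D8. Exons 12 to 13 had 48 and 25 reads at D4 and 8 and 14 at D8. In both cases the D4 libraries lay above the D8 libraries. The mean of exons 3 to 6 was 1145 ± 10.3 circCPM at D4 and 389 ± 176 at D8, and that of exons 12 to 13 was 857 ± 364 and 226 ± 70.7 (SD, n = 2). D8 minus D4 was -1.55 ± 0.53 (SE) on the log2 scale for exons 3 to 6 and -1.90 ± 0.63 for exons 12 to 13. No fold against D0 is given, since both libraries of that stage are listed at 0.

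Exons 3 to 6 of Bmper are given in full because this circle has no circBase name by which it could be looked up. The exons lie at chr9:23058816-23058915, chr9:23097849-23097931, chr9:23101650-23101740 and chr9:23105384-23105466 of mm9 on the + strand, all in the coding sequence.
Bmper exon 3: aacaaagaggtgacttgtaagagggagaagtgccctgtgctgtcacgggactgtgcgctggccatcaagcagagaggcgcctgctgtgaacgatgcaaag
Bmper exon 4: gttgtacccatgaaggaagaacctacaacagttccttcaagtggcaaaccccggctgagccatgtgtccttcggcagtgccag
Bmper exon 5: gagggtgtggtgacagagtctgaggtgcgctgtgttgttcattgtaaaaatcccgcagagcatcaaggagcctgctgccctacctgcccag
Bmper exon 6: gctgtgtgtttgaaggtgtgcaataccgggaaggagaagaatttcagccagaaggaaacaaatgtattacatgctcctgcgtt

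The other 5 Bmper members used the same 2 ends. Exons 4 to 6 ended with exon 6 like the first index circle, and exons 7 to 13, 8 to 13, 11 to 13 and exon 13 alone ended with exon 13 like the second. The lower case bases of each joint below therefore repeat those of the index circle that shares its end, and the capitals differ.
Bmper exons 4 to 6: acatgctcctgcgttGTTGTACCCATGAAG
Bmper exons 7 to 13: taccactttctaccgGGAGGCAGGACACAG
Bmper exons 8 to 13: taccactttctaccgGTCAGAGAAAAGTAT
Bmper exons 11 to 13: taccactttctaccgGGTAAAATTCTCAAC
Bmper exon 13: taccactttctaccgGTTTGGAGATATCGT

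On D4 these 5 circles had 2 to 14 reads per library, and each was present in both D4 libraries. Exons 7 to 13 had 12 and 14 reads, exons 4 to 6 had 14 and 9, and exons 8 to 13 had 13 and 2. On D8 only exons 8 to 13, with 5 reads, and exon 13, with 4 reads, were seen, both in replicate 2 alone. Bmper exons 8 to 11, which overlaps no index circle, had 12 and 3 reads at D4 and none on D8. The 8 circRNAs summed to 3237 ± 775 circCPM at D4 and 704 ± 372 at D8 (SD, n = 2), and they used 7 different start sites but 3 end sites. Exons 3 to 6 supplied 35.3% of the gene's back-splice reads at D4 and 55.1% at D8, and exons 12 to 13 supplied 26.5% and 31.9%.

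The 8 members added by overlap were not chosen by their own levels. Each shares its gene with an index circRNA that was, so their p-values are not free of that choice. Only 2 of the 8 passed the filter on low counts of edgeR's filterByExpr, which asks for about 10 reads, or 236 circCPM, in at least 2 libraries. Both passed it only through D4, Bmper exons 7 to 13 with no read at any other stage, so their p-values describe circles admitted where they were high. Neither was called across the 3 stages by edgeR's quasi-likelihood F-test with Benjamini-Hochberg adjustment over the 1407 circRNAs tested, of which 1.14% were called. The adjusted p was 0.142 for Tgfbr2 exons 3 to 6 and 0.126 for Bmper exons 7 to 13, with ranges of 0.0782 to 0.292 over 12 alternatives and 0.113 to 0.433 over 9. At an unadjusted p under 0.05 both passed, as did 21% of all circRNAs tested, and DESeq2's likelihood ratio test called 0 of the 2 and 5.54% of all circRNAs tested. For Tgfbr2 exons 3 to 6 edgeR gave an adjusted p of 0.0907 for D4 against D0, with an unadjusted p of 0.00619, and of 0.115 for D8 against D0. Its D8 minus D4 difference was -0.22 ± 0.92 on the log2 scale, with an edgeR adjusted p of 0.955. The other 6 fell below the filter. With no filter all 8 were fitted and edgeR called 0, where 10.8% of all 3662 were called, and 5 of the 8 had an unadjusted p under 0.05, against 25.3% of all.

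Over the members as a whole, detection was uneven between stages. With 2 or more reads required in both replicates, 3 of 13 were detected at D0, 12 at D4 and 7 at D8, against 57.6%, 58.7% and 64.5% of all circRNAs. The 3 present on D0 were the Acvr2a, Tgfbr2 and Smad1 index circles. No read was seen on D0 for 10 of 13, against 20.5% of all circRNAs, and 10 of 13 had their highest stage mean on D4, against 28.6%. These counts rest partly on index circRNAs chosen for their stage levels, and isoforms of 1 gene share that gene, so the 13 are not independent.

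Exons and introns are described next. The index circRNAs were chosen with their levels in view, but the other members were added by their position. Several of these share an end and a flanking intron with an index circle. The medians and counts over the 13 are therefore partly fixed by that rule. The annotated spliced length of the members had a median of 581 bases, from 257 to 1302, against a median of 444 over 3338 circRNAs with annotated exons. The intron upstream of the circle had a median length of 26557 bases against 10526, and the intron downstream 65169 bases against 8261 over 3329 circRNAs. The 2 longest introns of the transcript flanked the circle in 4 of 13 members, against 17.3% of 3294 circRNAs whose transcripts have 4 or more introns. Among the index circles this held for Acvr2a, with introns of 55462 and 16824 bases, for Smad1, with 26888 and 15314, and for Tgfbr2, with 26557 and 19512. At least 1 flanking intron was among the 2 longest for 12 of 13 members, against 65.15%. In Bmper all 7 members ended before intron 6 or intron 13, of 65169 and 66614 bases, the 2 longest of its 14 introns, so the 7 share these values. Bmper exons 8 to 11, the circle outside the set, ended before an intron of 17875 bases.

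Circles differed in whether the reading frame closes on itself. Of the 12 members made only of coding exons, 4 had a length that is a multiple of 3, against 37.8% of 2629 such circRNAs. These were Tgfbr2 exons 3 to 4 with 120 codons, exons 2 to 4 with 145 and exons 3 to 6 with 434, and Bmper exons 3 to 6 with 119. Read in the frame of the gene, none of these 4 met a stop codon in going round. In the Acvr2a circle the frame shifted at the joint and met a stop after 162 bases, and in Bmper exons 12 to 13 after 46 bases. The Smad1 circle holds the start codon of the gene and met a stop 182 bases past the joint. The number of exons was 1 in 2 of 13 members against 5.93% of all, and 3 of 13 began at exon 2 against 35.8%. These are properties of the annotated exons between the ends, and neither the inside of the circles nor translation was measured.

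The rest of the pathway was read from a list of 120 genes, 33 ligands, 19 receptors, 8 Smads, 29 extracellular modulators, and 31 intracellular regulators and targets. Only 25 of them had a circRNA in the table, 60 circRNAs in all. By role these were 1 ligand, 8 receptors, 5 Smads, 5 extracellular modulators and 6 intracellular genes. Apart from the 4 genes above, 21 genes gave 45 circRNAs, of which 19 could be tested. For D4 against D0, edgeR called 3 of the 19 lower and 0 higher at an adjusted p under 0.05. Of all circRNAs tested, 1.07% were called lower and 2.2% higher. At an unadjusted p under 0.05 the count was 6 of 19, against 19.9% of all circRNAs tested. Called or not, 7 of the 19 had a log2 difference above 0, as did 725 of all 1407 tested. The 3 called were circRNAs of Smad6, Ltbp1 and Crim1. The median log2 difference of the 19 was -0.44 for D4 minus D0 against 0.02 over all circRNAs tested, and -0.40 for D8 minus D0 against 0.06, with circRNAs at 0 in a stage set to a floor of 3 reads per library. Of the 19, 6 passed the filter on low counts only through their D0 libraries, Smad6, Ltbp1 and Crim1 among them, and 0 only through D4 or only through D8. A circRNA admitted that way is high on D0 from the start, so the counts and medians over the 19 describe those that passed and support no direction for the pathway.

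Smad6 is an inhibitory Smad of the BMP branch, and its exons 2 to 3 gave a circle of 135 bases with 33 and 48 back-splice reads at D0, 7 and 6 at D4, and 6 and 19 at D8. Ltbp1 anchors latent TGF-beta in the matrix, and its exons 6 to 7 had 27 and 46 reads at D0, 5 and 8 at D4, and 9 and 16 at D8. Crim1 is a membrane protein that binds BMPs, and its exons 6 to 7 had 32 and 24 reads at D0, 4 and 4 at D4, and 7 and 10 at D8. In all 3 both D0 libraries lay above the other 4. Their entry through D0 and their call on D4 favour this pattern, so it adds no support. Its share over all circRNAs is not given. D4 minus D0 was -2.96 ± 0.62 (SE) for Smad6, -2.80 ± 0.58 for Ltbp1 and -3.13 ± 0.60 for Crim1 on the log2 scale. The edgeR adjusted p was 0.0489, 0.0464 and 0.0374 in that order, for circRNAs that entered the test only through D0, the stage where they were high. Their D0 means were 8.42, 7.53 and 9.56 times their D4 means. With no filter 0 of the 45 pathway circRNAs were called, where 0.164% of all were called lower. With a minimum mean of 5 counts only Crim1 was called, where 0.644% of all were called lower, and all 3 calls were lost when either D0 library or either D4 library was left out, with adjusted p up to 0.218 over the alternatives. Over 12 alternatives D4 minus D0 ranged from -3.13 to -2.71 for Smad6 and from -3.14 to -2.42 for Ltbp1 on the log2 scale. For Crim1 it ranged from -3.35 to -2.82. The circRNA of Pdgfra, the only preadipocyte marker measured, stood at 266 and 309.5 circCPM at D0 against 69.7 and 0 at D4, and its part in these differences was not tested.

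**Figure D4:**
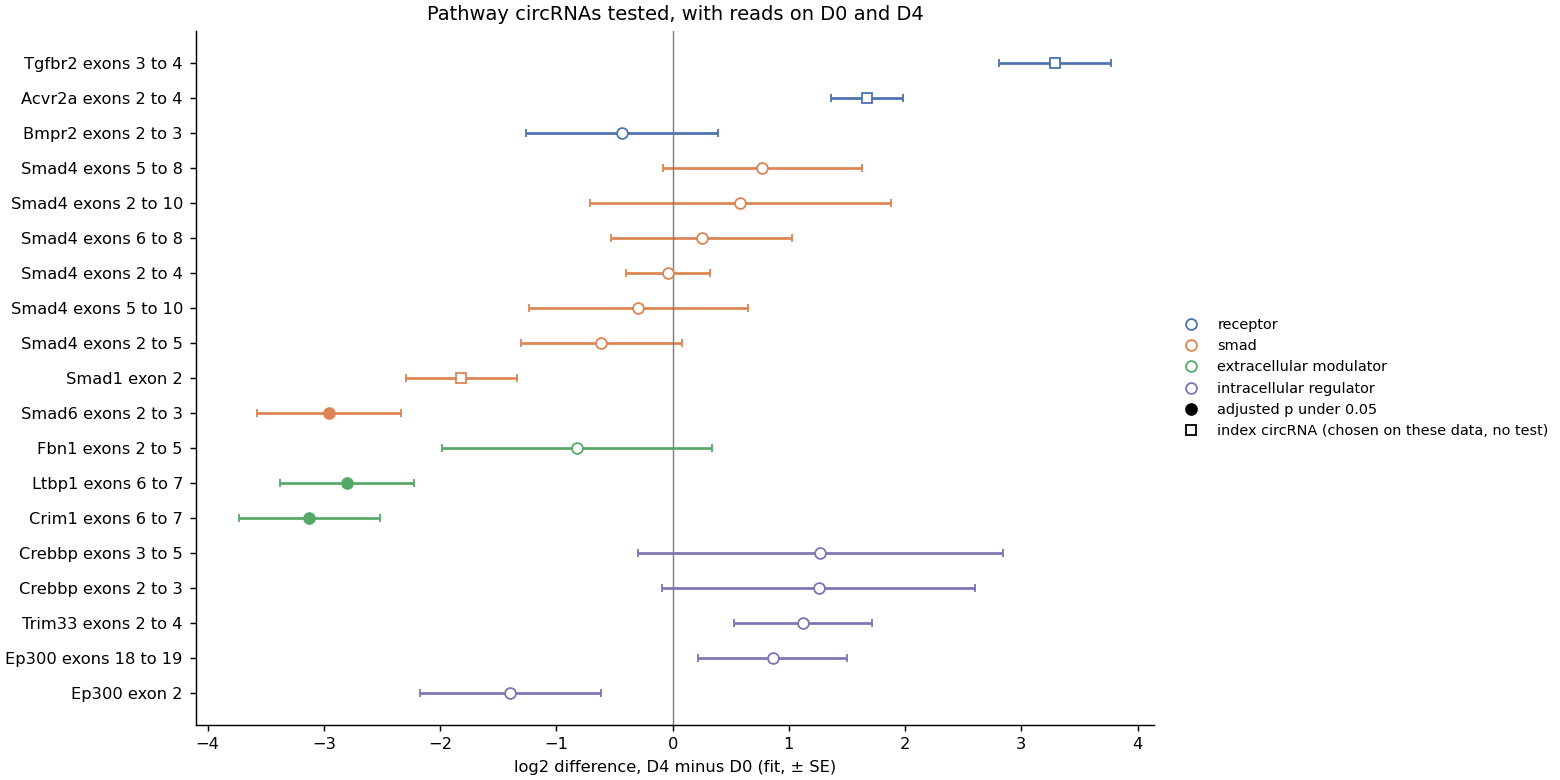
Log2 difference of D4 minus D0 with its SE (horizontal axis) for the tested pathway circRNAs with reads on both stages, coloured by role. Filled circles passed the adjusted p threshold of 0.05, open circles did not, and open squares are index circRNAs, which were not tested. Smad6, Ltbp1 and Crim1 lie near -3, and Tgfbr2 exons 3 to 4 lies furthest to the right at 3.29.

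On D8 against D0, 0 of the 19 were called, where 1.21% of all circRNAs tested were called higher and 0.284% lower, and 5 of the 19 had an unadjusted p under 0.05, against 18.8% of all. Smad6, Ltbp1 and Crim1 had differences of -2.23, -2.06 and -2.24 in this pair, with edgeR adjusted p of 0.107, 0.107 and 0.0902. On D8 against D4, 0 were called, and 0 had an unadjusted p under 0.05, where 12.2% of all did and where 0% of all were called higher and 0.0711% lower. DESeq2's Wald test also called 0 of the 19 in both pairs, but its share over all circRNAs is not given, so this is not compared. Across the 3 stages edgeR called 0 of the 19, where 1.14% of all circRNAs tested were called, with 5 of the 19 at an unadjusted p under 0.05, against 21% of all, while DESeq2's likelihood ratio test called 3, those of Smad6, Ltbp1 and Crim1, and 5.54% of all circRNAs tested. Both tools used the same libraries and the same filter, so this is no second line of support. The edgeR adjusted p of these across the stages was 0.0589, 0.0589 and 0.0562.

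The most abundant circles of each role were read next, apart from those already given. Smad4, the common partner of the other Smads, gave 6 circRNAs, all tested and none called, and its exons 2 to 4 had 66 and 58 reads at D0, 82 and 72 at D4, and 94 and 57 at D8 (edgeR adjusted p across stages 0.900). Bmpr2, a type II receptor for BMPs, had 19 and 5 reads at D0, 15 and 8 at D4, and 8 and 15 at D8 in its exons 2 to 3 (edgeR adjusted p 0.865). Trim33, a nuclear ubiquitin ligase that binds Smads, had 8 and 20 reads, then 35 and 42, then 49 and 25 in exons 2 to 4 (edgeR adjusted p 0.484). Ep300, an acetyltransferase that Smads recruit, had 4 and 17, then 25 and 23, then 39 and 35 in exons 18 to 19 (edgeR adjusted p 0.447). On the circCPM scale the libraries of the stages overlapped for Smad4, Bmpr2 and Trim33, and both D0 libraries lay below the other 4 for Ep300 without passing the test. Tgfbr1, the type I receptor of TGF-beta, and Tgfb1, the only ligand with a circRNA, were too low to test, with 17 reads or fewer in any stage.

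Some further receptor and modulator circles were listed at 0 in both libraries of at least 1 stage. They are named here after their values were seen, and none passed a test. Tgfbr3, a co-receptor that presents TGF-beta ligands, had 7 circRNAs, none with a read on D0, where 20.5% of all circRNAs had none, and none high enough to test, which summed to 35 and 35 reads at D4 and 23 and 17 at D8. In the opposite direction, the circRNA of Acvr1, a type I receptor, had 9 and 9 reads at D0 and none on D4 or D8, and that of Ltbp2 had 10 and 8 at D0 and none later. Both passed the filter only through D0 and were not called, with an edgeR adjusted p across stages of 0.126.

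For each index circle the 3 circRNAs of other genes with the most similar profile were sought over the 6 libraries, by the root-mean-square (RMS) difference of log2(circCPM + 10) after centring each on its mean. Acvr2a exons 2 to 4 was closest to Acer3 exons 2 to 7, with an RMS difference of 0.136, then to Hibadh exons 2 to 7 at 0.187 and Med13l exon 2 at 0.203, where the median over 1406 circRNAs was 1.23. Tgfbr2 exons 3 to 4 was closest to Glcci1 exons 2 to 6 at 0.231, Fndc3b exons 2 to 4 at 0.240 and Ssbp2 exons 2 to 4 at 0.369, with a median of 1.75. Bmper exons 3 to 6 was closest to Nfia exons 3 to 6 at 0.319, which had no read on D0, 70 and 49 reads at D4 and 8 and 30 at D8. Cacna1d exons 2 to 3 and a circle annotated to Vmn1r90 followed at 0.536 and 0.720, with a median of 3.08. Bmper exons 12 to 13 was also closest to Nfia exons 3 to 6, at 0.458, followed by a circle of Gm12609 at 0.596 and Cacna1d exons 2 to 3 at 0.649. Smad1 exon 2 was closest to circles of Ddah1, Snx9 and Dusp16, at 0.327, 0.341 and 0.346, but 0 of these 3 stayed among the closest with a pseudocount of 50 in place of 10. At that pseudocount 3 of 3 stayed for Acvr2a, and 2 of 3 for Tgfbr2 and for each Bmper circle. Among the index circles themselves, the Bmper pair was closest with an RMS difference of 0.405, Acvr2a and Tgfbr2 differed by 0.801, and Smad1 and Bmper exons 3 to 6 lay furthest apart at 3.83. The points share 6 libraries and their depth, and the values are descriptions.

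The circles were also searched for sites of 3 miRNAs with known roles in adipocyte differentiation. Their mature sequences, from RefSeq, are shown with the seed, bases 2 to 8, in capitals.
mmu-miR-17-5p: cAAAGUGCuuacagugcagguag
mmu-miR-30c-5p: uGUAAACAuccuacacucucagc
mmu-miR-130a-3p: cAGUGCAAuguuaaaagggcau

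The site sought was the reverse complement of each seed on the sense strand, read across the joint as well, GCACTTT for miR-17-5p, TGTTTAC for miR-30c-5p and TTGCACT for miR-130a-3p. None of the 13 members, spliced as annotated, held any of the 3. Among circRNAs of similar length to each index circle, 2.30% to 3.88% held a given site.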

How the data were processed

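CircRNA libraries of D0, D4 and D8 cells were analysed from the deposited table, in which the authors give raw back-splice read counts per circRNA and library, without normalization. Per the methods of the study, reads were cleaned with fastp, aligned to mm9 with BWA-MEM and searched for back-splices with CIRI2, and a circRNA was kept if some stage gave it at least 2 reads in each replicate, which held for 3662 of 3662 when checked. The submitters' processing notes also name FastQC 0.11.9 and HISAT2 2.2.0, without their role. Column totals of 30110 to 50672 reads served as depth and as the base of circCPM.

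Counts were fitted in R 4.3.3 with edgeR 4.0.16 and limma 3.58.1 (TMM, filterByExpr with a minimum count of 10 and total of 15, quasi-likelihood F-test, Benjamini-Hochberg adjustment, threshold 0.05, common dispersion 0.219). All 6 libraries and all 1407 circRNAs past the filter were fitted together. The fit was tested on simulated data, but no outcome of that is given here. Each p-value sets a stage difference against the spread between replicates. That spread was estimated from the 2 replicates of every stage together and moderated across the circRNAs tested. The alternatives were DESeq2 1.42.0, size factors by RLE, unscaled column totals, dropping the filter, a minimum mean of 5 counts, a replicate block and each library left out. Exons, introns and sequences came from the GENCODE annotation and genome of mm9 (Python 3.11.15, pysam 0.24.0).

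The members, gene lists and tests were chosen with earlier results of these data known. The circRNAs named are the index circRNAs, those that overlap them, others of the same genes, pathway circRNAs past the threshold, the 2 most abundant of other genes in each role, and the 3 most similar in profile to each index circRNA. Any other name was added after its values were seen. One gene of the pathway list is not reported here.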

Additional observations from a re-analysis of the deposited data

How the results depend on the processing

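Of 199 alternatives over the values reported, 173 were classed as the same, 24 as moved and 2 as reversed. These classes cover counts and shares as well as log2 differences, and a difference classed as moved could keep its direction. The number of pathway circRNAs called lower on D4 than on D0, 3 of 19, became 0 of 45 with no filter, where 0.164% of all were called lower. With a mean of 5 counts it became 1 of 17, where 0.644% of all were. The loss of these calls without a D0 or a D4 library is given above. Across the 3 stages the count of 0 became 3 of 19 with DESeq2, which called 5.54% of all circRNAs, and 5 of 45 with no filter, where 10.8% of all were called. It also rose without either D8 library, in fits that tested 23 and 24 of these circRNAs. No share over all circRNAs is given for those fits, so the rise is not compared. The cause was not tested, beyond the change in circRNAs or libraries entering the fit. The counts for D8 against D0, D8 against D4 and the overlapping isoforms stayed at 0 in every alternative run.

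Same-numbered replicates of different stages had correlated deviations of 0.0348 to 0.0703 over 1407 circRNAs, below 0.1, so the numbers were not taken as pairs. With the replicate number as a block, the 3 calls of D4 against D0 became 0, with adjusted p of 0.0765 for Smad6, 0.0615 for Ltbp1 and 0.0723 for Crim1 in edgeR.

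With each library left out, the log2 difference of D4 minus D0 ranged from 1.32 to 2.22 for Acvr2a, 2.88 to 3.96 for Tgfbr2 and -2.51 to -1.31 for Smad1, and that of D8 minus D0 from 0.84 to 1.75, 2.54 to 3.62 and -2.06 to -1.34. D8 minus D4 ranged from -0.56 to -0.39 for Acvr2a, -0.57 to -0.15 for Tgfbr2, -2.09 to -1.15 for Bmper exons 3 to 6 and -2.29 to -1.34 for exons 12 to 13. For Smad1 it ranged from -0.37 to 0.81 and reversed to -0.37 without D4 replicate 2 and to -0.28 without D8 replicate 2. A stage left with 1 library took its spread from the other stages in these fits. Counting only circRNAs detected in both D8 replicates raised the D8 share of Tgfbr2 exons 3 to 4 to 73.9% and that of Bmper exons 3 to 6 to 63.3%.

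With 2 libraries per stage and 30110 to 50672 reads in each, circles of a few reads fell below the filter and were fitted only without it.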
